A study of Mus musculus with 12 samples.

Results

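The livers of 6 male mice aged 8 weeks were compared, 3 labelled JAK2 KO and 3 labelled WT, of the 12 mice in the series. They were chosen by the sex and genotype in the sample titles and are named by genotype and animal number: KO 114, KO 122 and KO 207, and WT 112, WT 116 and WT 126. KO mice carried floxed Jak2 alleles and a Cre transgene under the albumin (Alb) promoter, which is active in hepatocytes. WT mice were littermate controls, and the sources used here do not say whether they carried the floxed alleles or Cre. The background of every animal was mixed (C57Bl/6:129Sv), and the diet was breeder chow. The other 6 mice were female, 3 JAK2 KO and 3 WT, bred in the same way. RNA of each whole liver went on 1 Affymetrix array without pooling, so cells other than hepatocytes also gave signal. In whole tissue, fewer cells of a type and less RNA per cell cannot be told apart. Values are deposited log2 levels of 19938 genes, on which 1 unit is a 2-fold difference.

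JAK2 is the kinase bound to the growth hormone receptor. When the hormone binds, JAK2 phosphorylates the receptor and the transcription factor STAT5, which enters the nucleus and switches on genes such as Igf1, Socs2 and Cish. In male mice the pituitary releases growth hormone in pulses, and in females more evenly, and this difference in pattern sets many of the liver genes that differ between the sexes. Loss of growth hormone signalling in hepatocytes is known for low circulating IGF1 and a fatty liver.

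Jak2 transcript was not lower in the KO livers. Its probe set (10462363) read 6.49, 6.56 and 6.18 in WT 112, 116 and 126, against 6.97, 6.86 and 6.65 in KO 114, 122 and 207. All KO arrays thus lay above all WT arrays, by 0.42 on average (SE 0.15, limma adjusted p = 0.386). The sources used here do not name the floxed part of the gene, so this value checks no genotype label. Of the 62 other genes measured within 5 Mb of Jak2 on chromosome 19, 6 (9.68%) had KO arrays on 1 side of the WT arrays, against 12.6% of all genes. Limma called 0 of the 62 with all animals and 4 without KO 207 (6.45%, against 2.38% of all genes). The hepatocyte markers were high in all 6 livers: their 9 genes averaged 12.39 to 12.61, and albumin (Alb) read 13.85 to 14.11.

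The 3 KO arrays were not alike. On the first principal component of the 6 male arrays, with 48.8% of the variance, KO 114 and KO 122 lay at 28.3 and 28.89, and the WT arrays at -19.04 to -10.36. KO 207 lay at -10.73, at the edge of the WT arrays. The second component (16.0%) put KO 207 at 16.4 and WT 126 at 13.18, the other KO arrays at -7.59 and 2.87, and WT 112 and WT 116 at -14.5 and -10.36. The mean correlation of KO 207 was 0.991 with the WT arrays and 0.984 with the other KO arrays. The results are therefore given array by array, with all 6 arrays first and then without KO 207. Leaving this animal out was decided with its values known.

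With all animals, 10 of 19938 genes passed the test (0.0502%), 3 higher (0.015%) and 7 lower (0.0351%) in KO. Cyp4a14, a fatty acid hydroxylase induced by the lipid-sensing receptor PPARA, read 4.58, 4.04 and 6.62 in WT 112, 116 and 126, against 10.10, 11.11 and 8.65 in KO 114, 122 and 207. Onecut1, which encodes the hepatocyte transcription factor HNF6, read 7.39, 8.89 and 8.38 in WT, against 5.58, 5.49 and 6.16 in KO, in the same order. For both genes KO 207 was on the side of the other KO livers, and the groups did not overlap. The mean differences were 4.87 (SE 0.63, adjusted p = 0.0138) and -2.47 (SE 0.30, adjusted p = 0.0138). Vnn1, which encodes a pantetheinase under PPARA control, rose by 2.14 in KO (adjusted p = 0.0302). The endothelial gene Lyve1, whose product binds hyaluronan, rose by 0.92 (adjusted p = 0.0424). Susd4 (a complement regulator), Gm16551, Plcxd2, Tgm1 (a transglutaminase), Nat8 (an acetyltransferase) and Mcm10 (a DNA replication factor) fell as well. At the extremes, Susd4 fell by 2.06 and Mcm10 fell by 0.90. In these 10 genes KO 207 lay 44.6% (Susd4) to 76.7% (Onecut1) of the way from the WT mean to the mean of KO 114 and KO 122. KO 207 took part in choosing them, which favours genes where it lies toward the other KO arrays, so these positions do not describe it over other genes. The same 4-group limma fit called 0 genes without WT 116, without KO 114 or without KO 122, where 1465, 1479 and 1347 genes had a p under 0.05 before adjustment. The count was 22 without WT 126 and 475 (2.38%) without KO 207, and 5, 5 and 6 without female WT 119, female WT 132 or female KO 141, which enter through the shared spread. Vnn1, Lyve1 and Mcm10 did not pass without WT 126 (adjusted p = 0.0563 for each by limma). After quantile normalization 1 gene was higher and 7 were lower. The KO arrays lay above all WT arrays in 1449 genes (7.27%) and below them in 1064 (5.34%), and these counts became 1216 and 1269 after quantile normalization. They were apart by a mean of at least 1 unit, higher in 33 genes (0.166%) and lower in 42 (0.211%).

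**Figure D1:**
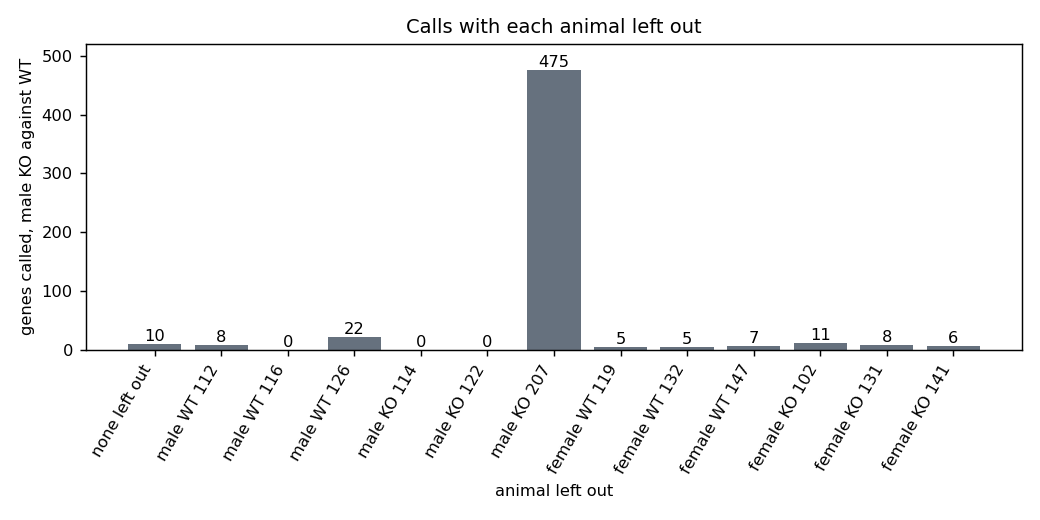
Number of genes called in male KO against male WT (limma, adjusted p under 0.05; bars from 0, number on each bar) with all animals and with each of the 12 animals left out in turn. The count was 10 with all animals, 475 without KO 207, and 0 without WT 116, KO 114 or KO 122.

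Without KO 207, 267 genes were higher (1.34%) and 208 lower (1.04%) in KO, and the array left out took no part in choosing these 475 genes. For the 267 higher genes KO 207 lay a median of 21.5% of the way from the WT mean to the mean of the other KO arrays (quartiles 1.18% and 41.5%). It was above all WT arrays for 137 of them, inside their range for 103 and below all of them for 27. For the 208 lower genes its median position was 14.1% (quartiles -3.93% and 32.7%), below all WT arrays for 102, inside their range for 77 and above for 29. KO 207 thus varied in its position from gene to gene. It was at 50% or more of the way in 48 of the higher and 31 of the lower genes. Among them were Cyp4a10 (80.1%), Cyp4a31 (61.5%) and the transcription coactivator gene Ppargc1a (76.5%) on the higher side, and Socs2 (69.6%), the clock repressor gene Bhlhe41 (65.3%) and the sulfotransferase gene Sult5a1 (57.6%) on the lower side. Over all genes a single KO array was above all WT arrays in 27.6% to 28.3% and below all of them in 25.1% to 26.2%.

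**Figure D2:**
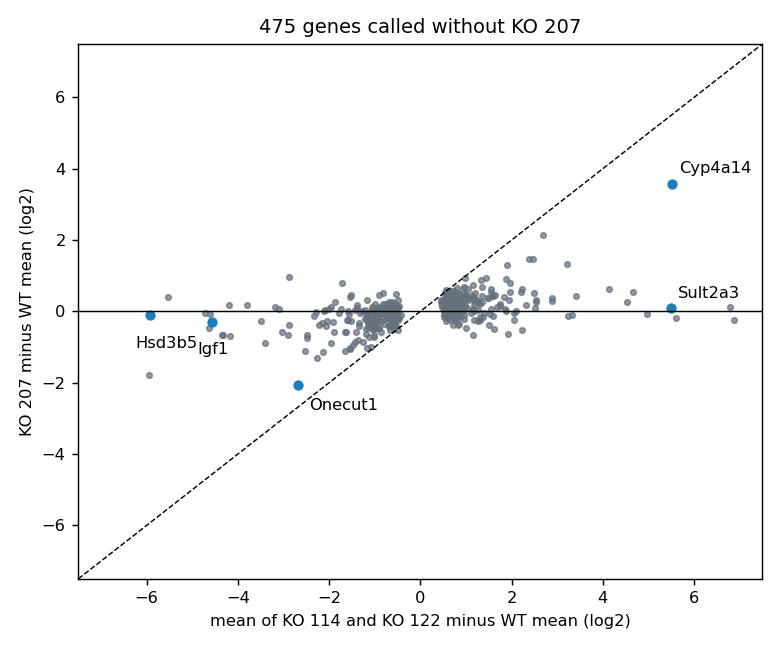
Each point is 1 of the 475 genes called without KO 207: the horizontal axis is the mean of KO 114 and KO 122 minus the WT mean (log2) and the vertical axis is KO 207 minus the WT mean (log2). The dashed line marks equal values and the solid line 0; Cyp4a14 (64.6% of the way) and Onecut1 (76.7%) lie nearer to the dashed line than to 0, and Igf1, Hsd3b5 and Sult2a3 near 0.

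Among targets of growth hormone and STAT5 the KO arrays split by gene. Igf1, the main effector of growth hormone in the circulation, read 10.39, 10.35 and 10.42 in WT 112, 116 and 126, 5.71 and 5.91 in KO 114 and 122, and 10.10 in KO 207. Igfals, whose product holds IGF1 in the blood, read 8.28, 8.27 and 8.67 in WT, 5.31 and 5.42 in KO 114 and 122, and 7.84 in KO 207. In both, KO 207 was just below the lowest WT array and far above the other KO arrays. Cish, a feedback inhibitor that STAT5 induces, read 5.41, 7.0 and 6.45 in WT, against 5.15, 5.20 and 5.28 in KO, so that the 3 KO arrays agreed and WT 112 lay close to them. Socs2, a feedback inhibitor of the same family, read 5.70, 7.33 and 5.71 in WT, against 4.92, 4.50 and 5.18 in KO. Here too the KO arrays lay together below WT, and WT 116 stood above the other WT arrays. The growth regulator gene Myc had the same pattern, with 5.82, 6.69 and 6.22 in WT, against 5.67, 5.46 and 5.57 in KO.

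Of these 5 genes, 0 passed the limma test with all animals, and all 5 had an unadjusted p under 0.05. The differences were -3.14 for Igf1 (SE 0.76, adjusted p = 0.136), -2.22 for Igfals (SE 0.47, adjusted p = 0.0897), -1.38 for Socs2 (SE 0.33, adjusted p = 0.122), -1.08 for Cish (SE 0.27, adjusted p = 0.143) and -0.68 for Myc (adjusted p = 0.355). Without KO 207, Igf1 (-4.57, adjusted p = 1.08e-10), Igfals (-3.04, adjusted p = 8.77e-07) and Socs2 (-1.54, adjusted p = 0.034) passed, and Cish (adjusted p = 0.0746) and Myc (adjusted p = 0.298) did not. Cish passed without WT 112 (-1.52, adjusted p = 0.00167). The epidermal growth factor receptor gene Egfr read 11.27, 11.30 and 11 in WT, 6.61 and 6.48 in KO 114 and 122, and 10.73 in KO 207. Its difference was -3.25 (adjusted p = 0.122) with all animals and -4.64 (adjusted p = 6.66e-08) without KO 207. Bcl6, a repressor of STAT5 targets, overlapped between the groups, with 8.58, 6.05 and 5.80 in WT, against 7.0, 8.24 and 8.98 in KO. Of the 13 listed targets measured, 1 was called (Onecut1, lower) with all animals and 6 without KO 207, all lower. Over all genes the shares called lower were 0.0351% and 1.04%. KO arrays lay below all WT arrays in 7 of 13 (53.8%), against 5.34% of all genes, and above them in 0 of 13, against 7.27%. The median difference was -1.08, against 0.0 over all genes. Counted array by array, KO 114 and KO 122 were each below the WT range in 9 of the 13 genes and KO 207 in 7. Over all genes the share for a single KO array was 25.1% to 26.2%.

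**Figure D3:**
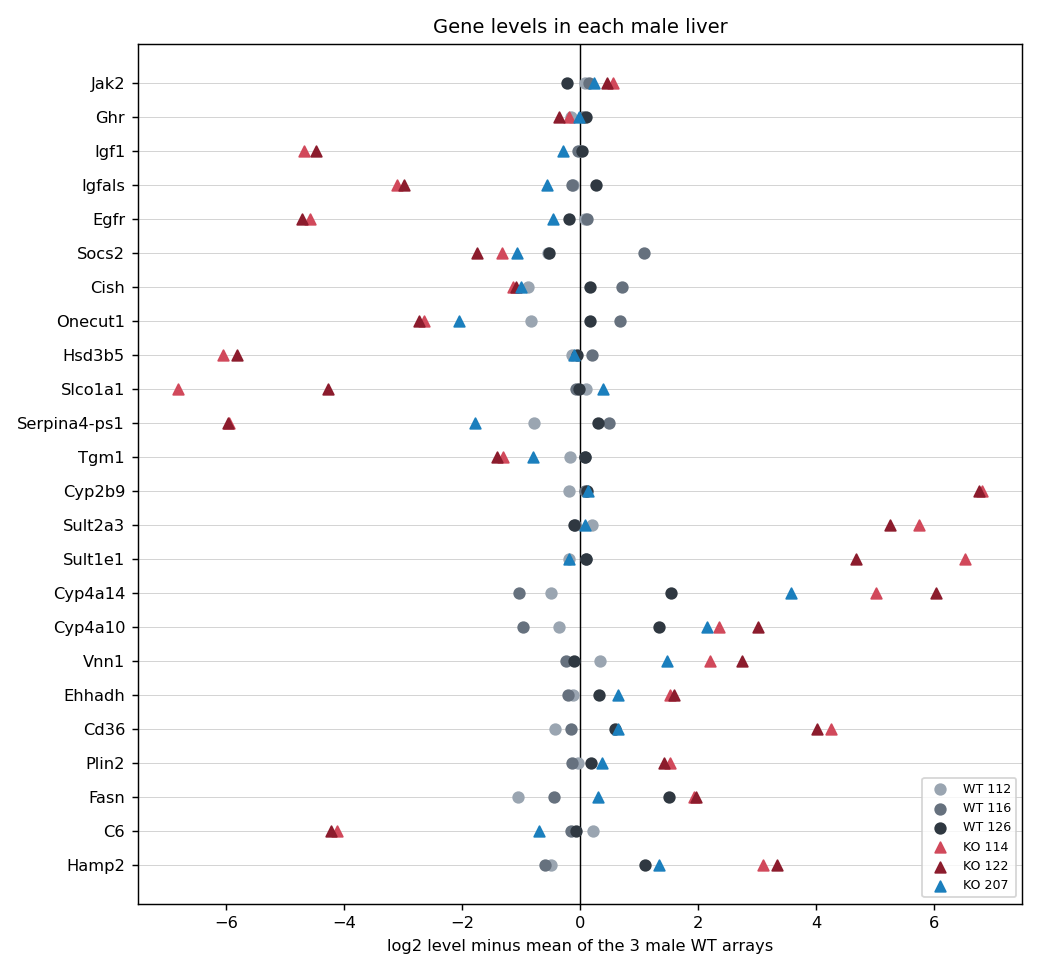
Level of 24 genes in each of the 6 male livers as the log2 value minus the mean of the 3 WT arrays (circles WT, triangles KO; KO 207 in its own colour), ordered by role. KO 207 lies among or next to the WT arrays for Hsd3b5, Sult2a3 and Cyp2b9, near the other KO arrays for Cish and Onecut1, and in between for Cyp4a14 and Vnn1.

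The letters to which STAT5 binds are TTCNNNGAA, which reads the same on both strands. RefSeq promoter windows (GRCm38.p6, 250 bases before to 50 after a transcription start) were searched for them, and 8.3% of the 32851 windows held a match. Of the 13 targets, 8 had windows, and 4 of these had a match in at least 1 window. Among genes called without KO 207 and with a window, a match was found for 22 of 167 lower genes (13.2%) and 9 of 217 higher genes (4.15%), against 8.99% of all measured genes. Genes differ in their number of windows, and a match is a description of the letters, not a binding site. Shown are 200 bases before to 30 bases from the start, with matches in capitals, for the target genes Cish and Bcl6 and the genes Keg1 and Tgm1 of the male-biased list, whose windows held at least 2 matches, and for Igfals with 1.
Cish, chr9:107296459-107296688, plus strand: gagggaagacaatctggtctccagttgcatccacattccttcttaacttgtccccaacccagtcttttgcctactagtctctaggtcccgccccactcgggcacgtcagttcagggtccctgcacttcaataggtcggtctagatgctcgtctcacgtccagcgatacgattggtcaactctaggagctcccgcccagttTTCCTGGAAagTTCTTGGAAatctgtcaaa
Igfals, chr17:24878031-24878260, plus strand: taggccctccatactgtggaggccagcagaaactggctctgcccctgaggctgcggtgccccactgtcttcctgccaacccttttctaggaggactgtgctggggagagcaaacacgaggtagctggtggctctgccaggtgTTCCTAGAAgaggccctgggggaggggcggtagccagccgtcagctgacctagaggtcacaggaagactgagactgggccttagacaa
Keg1, chr19:12695590-12695819, plus strand: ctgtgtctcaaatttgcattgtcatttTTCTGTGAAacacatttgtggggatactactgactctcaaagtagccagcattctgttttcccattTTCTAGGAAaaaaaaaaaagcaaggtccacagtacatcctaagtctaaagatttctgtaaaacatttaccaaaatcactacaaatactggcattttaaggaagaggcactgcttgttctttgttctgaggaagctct
Tgm1, chr14:55713463-55713692, minus strand: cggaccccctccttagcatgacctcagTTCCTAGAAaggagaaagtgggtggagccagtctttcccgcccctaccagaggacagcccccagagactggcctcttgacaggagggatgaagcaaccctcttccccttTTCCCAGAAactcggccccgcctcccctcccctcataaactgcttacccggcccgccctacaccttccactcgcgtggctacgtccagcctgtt
Bcl6, chr16:23981254-23981483, minus strand: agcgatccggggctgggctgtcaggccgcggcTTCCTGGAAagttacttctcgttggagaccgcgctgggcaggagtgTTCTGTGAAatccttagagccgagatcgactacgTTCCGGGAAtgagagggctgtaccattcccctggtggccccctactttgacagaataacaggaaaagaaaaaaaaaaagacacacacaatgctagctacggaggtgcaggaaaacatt
In Cish the matches began at base 1 and base 12 of the transcript. They began 173 and 107 bases before the start in Keg1, 173 and 64 bases before it in Tgm1, 58 bases before it in Igfals, and 168, 122 and 88 bases before it in Bcl6. Keg1 read 10.41, 10.18 and 10.50 in WT 112, 116 and 126, 6.18 and 5.84 in KO 114 and 122, and 9.69 in KO 207. Tgm1 read 6.57, 6.82 and 6.82 in WT, against 5.42, 5.32 and 5.93 in KO. The 2 genes differed in where KO 207 lay, at 15.4% of the way to the other KO arrays for Keg1 and at 58.8% for Tgm1.

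Of the 25 measured components of the pathway, from receptor to kinases, STAT factors and inhibitors, limma called 0 with or without KO 207. An unadjusted p under 0.05 was found for 3 of them with all animals and 7 without KO 207. The counts over all 19938 genes were 1796 and 2302. The growth hormone receptor gene Ghr read 10.71, 10.92 and 10.97 in WT, against 10.67, 10.51 and 10.84 in KO, which overlapped. Stat5a read 6.75, 6.98 and 6.80 in WT, against 7.22, 7.21 and 6.98 in KO, and Stat5b read 7.75, 7.88 and 7.62 in WT, against 7.90, 7.72 and 8.27 in KO. Components with KO arrays above all WT arrays were Jak2, Jak1 (0.15) and the inhibitor gene Socs5 (0.24), 3 of 25 (12%) against 7.27% of all genes. Of the 12 genes for IGF-binding proteins and receptors, Igfbp3, which carries IGF1 together with Igfals, was higher in all KO arrays by 0.42 (adjusted p = 0.405), and Igfbp5 was lower in all of them by 0.45 (adjusted p = 0.3). The receptor gene Igf1r lay at 4.77 to 5.15 in all 6 arrays. Of 13 measured receptor genes that other JAK2-coupled ligands use, KO arrays lay above all WT arrays in 3 (23.1%), Lepr, Csf2rb and Il3ra, against 7.27% of all genes. They lay below in 1 (7.69%), Lifr, against 5.34%, and the median difference of the 13 was 0.11. Lifr, the leukaemia inhibitory factor receptor, read 10.38, 10.43 and 10.09 in WT, 8.19 and 8.28 in KO 114 and 122, and 9.88 in KO 207. Its mean difference was -1.51 (limma adjusted p = 0.0916), and -2.06 (adjusted p = 1.06e-05) once KO 207 was left out.

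Genes listed as higher in male than in female liver were low in KO 114 and KO 122, and KO 207 varied from gene to gene. Hsd3b5, a steroid reductase, read 9.55, 9.90 and 9.64 in WT 112, 116 and 126, 3.65 and 3.88 in KO 114 and 122, and 9.59 in KO 207. Slco1a1, a transporter of bile acids and steroids, read 10.74, 10.58 and 10.62 in WT, 3.83 and 6.38 in KO 114 and 122, and 11.04 in KO 207. KO 207 was inside the WT range for Hsd3b5 and above it for Slco1a1. The urinary protein gene Mup3 (12.19 to 12.44 in WT), the fatty acid elongase gene Elovl3 (8.82 to 9.97) and the steroid hydroxylase gene Cyp2d9 (11.39 to 11.45) read 12.32, 10.33 and 11.43 in KO 207. In KO 114 and 122 they read 10.04 and 10.01, 6.53 and 6.43, and 9.86 and 9.80. Other genes of the list were lower in all KO arrays. Serpina4-ps1, a serpin pseudogene, read 9.55, 10.82 and 10.64 in WT, 4.39 and 4.37 in KO 114 and 122, and 8.56 in KO 207. Selenbp1, which encodes a selenium-binding protein, read 9.92, 10.41 and 10.12 in WT, against 9.07, 9.21 and 9.42 in KO.

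Of the 36 genes measured from the male-biased list, Susd4, Tgm1 and Nat8 were called lower and 0 higher with all animals. Over all genes the shares were 0.0351% and 0.015%. The WT livers held the listed direction, with all male above all female arrays, in 27 of the 36. They overlapped in 7 and were the other way round in Cyp2c54 and in Tgm1, which averaged 6.74 in male WT and 7.61 in female WT. KO arrays lay below all WT arrays in 20 of them (55.6%), against 5.34% of all genes, and above in 0, against 7.27%. The median difference was -1.29. Without KO 207, 29 were called lower and 0 higher, against 1.04% and 1.34% of all genes, with a median of -1.81. The largest were Serpina4-ps1 (-5.96), Hsd3b5 (-5.93) and Slco1a1 (-5.54). Array by array, KO 114 was below the WT range in 32 of the 36 genes, KO 122 in 33 and KO 207 in 21. KO 207 was above that range in 4, and the other KO arrays in 1 each. Over all genes the share for a single KO array was 25.1% to 26.2% below and 27.6% to 28.3% above. The list was drawn up with earlier results of these livers known, so its direction is not independent evidence.

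Genes listed as higher in female than in male liver gave wide gaps between the KO arrays. Of the 35 measured, all female WT arrays lay above all male WT arrays in 30, the sexes overlapped in 4, among them Sult2a3 and Lifr, and Lpl was the other way round. Cyp2b9 and Cyp2b13, neighbouring cytochrome P450 genes, read 4.17 to 4.49 and 2.91 to 3.49 in WT, 11.18 and 10.07 in KO 114, 11.13 and 10.09 in KO 122, and 4.50 and 2.96 in KO 207. Sult2a3, a sulfotransferase of bile acids and steroids, read 3.26, 2.98 and 2.96 in WT, 8.80 and 8.31 in KO 114 and 122, and 3.15 in KO 207. Sult1e1, an oestrogen sulfotransferase, read 2.72, 3.00 and 3.00 in WT, 9.43 and 7.58 in KO 114 and 122, and 2.71 in KO 207. In WT females the means were 3.40 for Sult2a3 and 3.48 for Sult1e1, far below the male KO 114 and 122 values, and in female KO they were 9.19 and 8.36. In Cyp2b9, Cyp2b13, Sult2a3 and Sult1e1, KO 207 was in or next to the WT range, and both other KO arrays lay far above it. The oxidase gene Hao2 (3.02 to 3.24 in WT, 7.96, 8.26 and 3.07 in KO) and the steroidogenic P450 gene Cyp17a1 (5.61 to 6.34 in WT, 10.55, 10.50 and 6.39 in KO) had the same pattern. So did the P450 gene Cyp2a22, which is not on this list (5.03 to 5.19 in WT, 9.65, 9.66 and 5.39 in KO). Near-identical members of the Cyp2b and Sult2a families may share probe signal.

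In these genes KO 207 overlapped or nearly touched WT, and 0 of the 7 passed the limma test with all animals, when all 7 had an unadjusted p under 0.05. The differences were 4.57 for Cyp2b9 (SE 1.80, adjusted p = 0.435), 3.69 for Sult2a3 (SE 0.97, adjusted p = 0.172) and 3.67 for Sult1e1 (SE 1.13, adjusted p = 0.279). Without KO 207 they were 6.78 (adjusted p = 0.0296), 5.49 (adjusted p = 8.14e-10) and 5.60 (adjusted p = 3.93e-05). Of the 35 genes, 1 (Cyp4a14) was called higher and 0 lower with all animals, and 16 higher and 1 lower (Lifr) without KO 207. Over all genes the shares higher and lower were 0.015% and 0.0351% with all animals, and 1.34% and 1.04% without KO 207. KO arrays lay above all WT arrays in 10 (28.6%) and below in 3 (8.57%), against 7.27% and 5.34% of all genes. The median difference was 0.59 with all animals, 0.85 without KO 207, and -0.02 for KO 207 alone against WT. KO 114 was above the WT range in 24 of the 35 genes (68.6%), KO 122 in 27 (77.1%) and KO 207 in 11 (31.4%). Over all genes the share was 27.6% to 28.3%, so KO 207 was near it. In the other direction, Slc22a26 (an organic anion transporter) and Nipal1 (a magnesium transporter), which were low in male WT (4.36 to 4.59 and 4.41 to 4.86), were lower still in all KO arrays, by 0.42 and 0.45 (adjusted p = 0.571 and 0.431).

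Genes of fatty acid oxidation were high in KO 114 and KO 122, and KO 207 was above WT in part of them. Cyp4a10, a neighbour and relative of Cyp4a14, read 6.51, 5.89 and 8.20 in WT 112, 116 and 126, against 9.22, 9.88 and 9.02 in KO 114, 122 and 207. Vnn1 read 7.67, 7.10 and 7.23 in WT, against 9.54, 10.07 and 8.81 in KO. Ehhadh, an enzyme of peroxisomal beta-oxidation, read 9.39, 9.31 and 9.84 in WT, against 11.04, 11.10 and 10.15 in KO. The groups did not overlap in any of the 3, with WT 126 highest of the WT arrays for Cyp4a10 and Ehhadh. Acadm, the medium-chain acyl-CoA dehydrogenase, read 10.56 to 10.87 in WT and 11.56, 11.69 and 11.04 in KO, and the coactivator gene Ppargc1a 5.47 to 5.74 in WT and 6.33, 6.45 and 6.21 in KO. Pdk4, a brake on glucose oxidation, read 4.62 to 4.87 in WT, 6.96 and 6.43 in KO 114 and 122, and 5.09 in KO 207. Acaa1b and Acot4, peroxisomal enzymes, did not follow, since KO 207 read 10.08 and 6.96, inside the WT ranges of 10.04 to 10.69 and 6.92 to 7.51.

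Of the 37 genes measured, Cyp4a14 and Vnn1 were called higher and 0 lower, and without KO 207 16 were called higher and 0 lower. Over all genes the shares called higher were 0.015% and 1.34%. KO arrays lay above all WT arrays in 19 (51.4%), against 7.27% of all genes, and below in 1, the uncoupling protein gene Ucp3. The median difference was 0.39, and 0.17 for KO 207 alone. KO 114 and KO 122 were each above the WT range in 31 of the 37 genes and KO 207 in 21, against 27.6% to 28.3% of all genes. Cyp4a10 differed by 2.51 (SE 0.46, adjusted p = 0.0637; 0.004 without WT 126), Ehhadh by 1.25 (adjusted p = 0.0723), Acadm by 0.69 (adjusted p = 0.0843) and Ppargc1a, which is not on this list, by 0.68 (adjusted p = 0.0637). Fgf21, a PPARA-induced hormone, and Ppara itself were not called in either fit. Cyp4a10, Cyp4a14 and Cyp4a31 are closely related and their probes may share signal.

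**Figure D4:**
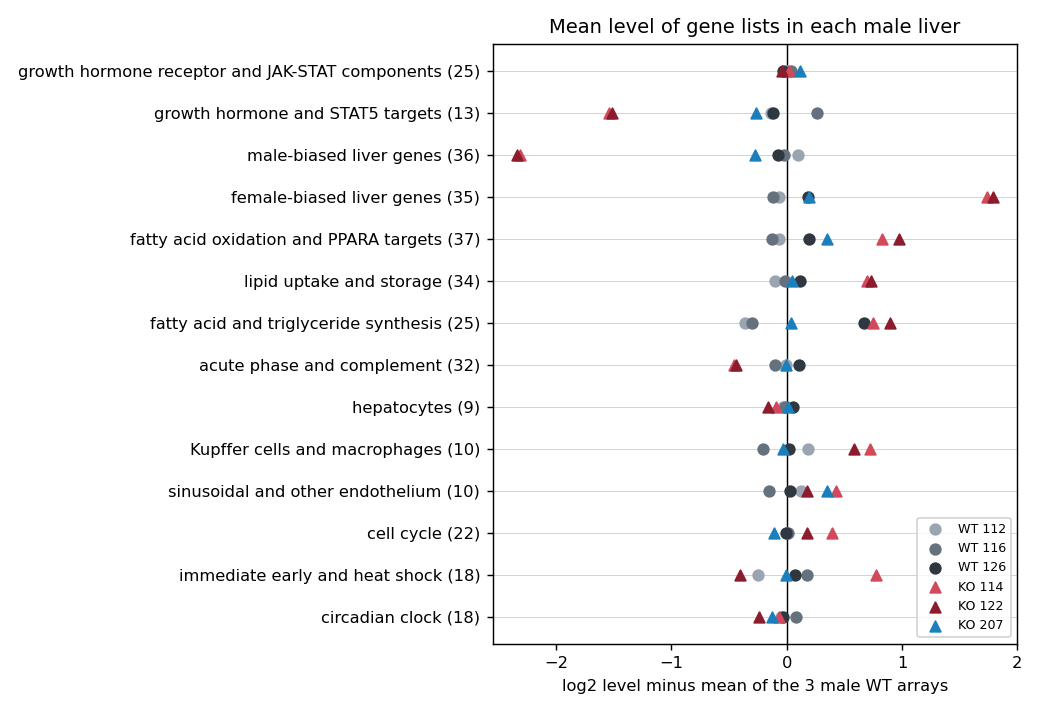
Mean log2 level of each gene list in each of the 6 male livers, minus the mean of the 3 WT livers (circles WT, triangles KO; KO 207 in its own colour; number of genes measured beside each name). KO 114 and KO 122 lie far from 0 for male-biased and female-biased genes, and KO 207 lies close to the WT livers there and just above them for fatty acid oxidation genes.

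Among lipid uptake and storage genes, KO 114 and KO 122 read high and KO 207 read near WT. Cd36, which takes up fatty acids, read 5.38, 5.64 and 6.39 in WT, 10.06 and 9.82 in KO 114 and 122, and 6.44 in KO 207. Plin2, which coats lipid droplets, read 10.41, 10.30 and 10.62 in WT, against 11.97, 11.87 and 10.82 in KO. G0s2, an inhibitor of triglyceride breakdown, read 8.26, 8.22 and 7.62 in WT, against 9.90, 10.10 and 8.84 in KO. KO 207 was above the WT arrays in these 3 genes, least in Cd36 and most in G0s2. It was below WT for Cidec, a lipid droplet protein gene (4.96 to 5.41 in WT, 6.72, 6.83 and 4.66 in KO), and within WT for Pparg, the regulator of lipid storage (5.17 to 6.57 in WT, 7.64, 7.38 and 5.95 in KO). Mogat1, a monoacylglycerol acyltransferase, read 3.11 to 3.51 in WT, 5.70 and 6.78 in KO 114 and 122, and 3.66 in KO 207. Of the 34 genes, limma called 0 with all animals, when 13 had an unadjusted p under 0.05, against 1796 of all 19938 genes. Without KO 207, 10 were called higher and 0 lower, against 1.34% and 1.04% of all genes. KO arrays lay above all WT arrays in 8 (23.5%), against 7.27% of all genes, and below in 0, against 5.34%. G0s2 differed by 1.58 (SE 0.29, adjusted p = 0.0637).

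For fatty acid synthesis, WT 126 read high among the WT arrays and KO 207 low among the KO arrays in the leading genes. KO arrays lay above all WT arrays in 2 of the 25 genes (8%), against 7.27% of all genes, and below in 0. Fasn, the fatty acid synthase, read 8.61, 9.22 and 11.17 in WT 112, 116 and 126, against 11.60, 11.63 and 9.96 in KO 114, 122 and 207. Scd1, which desaturates fatty acids, read 12.03, 11.32 and 13.50 in WT, against 13.76, 13.74 and 13.02 in KO. Elovl6, a fatty acid elongase, read 8.04, 8.43 and 10.11 in WT, against 10.46, 10.71 and 8.71 in KO. In each of the 3 genes KO 207 lay between WT 116 and WT 126. Of the 25 genes, limma called 0 with all animals, when 10 had an unadjusted p under 0.05, against 1796 of all 19938 genes. The median difference was 0.45 with all animals, 0.76 without WT 126, 0.73 without KO 207, and 0.27 to 0.34 without any other male animal. Scd2, a desaturase that is low in normal liver, read 4.80 to 5.54 in WT, 7.58 and 9.36 in KO 114 and 122, and 5.04 in KO 207. It and Elovl5 were called higher without KO 207, 2 of the 25 genes against 1.34% of all genes.

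Complement and acute phase genes went both ways. The genes of the terminal complement pathway were low in KO 114 and KO 122: C6 read 9.84 to 10.21 in WT, 5.86 and 5.76 in KO 114 and 122, and 9.29 in KO 207. C8b read 11.23 to 11.58 in WT and 7.93, 7.87 and 11.14 in KO, and C9 read 10.33 to 11.04 in WT and 9.18, 8.78 and 10.07 in KO. KO 207 was below the WT range in all 3, by less than 1 unit. C8a read 10.33 to 10.95 in WT, 7.63 and 7.42 in KO 114 and 122, and 10.82 in KO 207, inside the WT range. The pentraxin gene Apcs and the acute phase gene Orm1 were lower in KO 114 (6.64 and 9.79) than in WT (8.53 to 9.55 and 11.62 to 11.94), and KO 122 was close to KO 114 in Orm1. Orm2, next to Orm1 in the genome, was higher instead, with 5.14 to 5.97 in WT and 7.79, 7.82 and 6.19 in KO, and so were Lcn2 and Saa2 in KO 114 and 122. Hamp2, a hepcidin gene, read 7.75, 7.65 and 9.35 in WT, against 11.35, 11.59 and 9.59 in KO, a difference of 2.59 (SE 0.46, adjusted p = 0.055; 0.0111 without WT 126). Of 32 genes measured, 0 were called with all animals by limma, with 17 at an unadjusted p under 0.05, against 1796 of all 19938 genes. Without KO 207, 4 were called higher and 10 lower, against 1.34% and 1.04% of all genes. KO arrays lay above all WT arrays in 4 (12.5%) and below them in 4 (12.5%), against 7.27% and 5.34% of all genes.

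Markers of other liver cells, cell cycle genes and immediate early genes also differed between the arrays. The 10 markers of Kupffer cells and macrophages had a mean level of 6.10 to 6.49 in WT, 7.03 and 6.89 in KO 114 and 122, and 6.27 in KO 207. KO 122 was above the WT range in all 10 markers, KO 114 in 9 and KO 207 in 1. Without KO 207 limma called Cd5l (1.18), Vsig4 (0.99), C1qb (0.81) and Cd68 (0.76) higher. These were 4 of the 10 markers, against 1.34% of all genes. The 10 endothelial markers, which include Lyve1, had a mean of 7.02 to 7.30 in WT and 7.60, 7.35 and 7.52 in KO, and 9 of the 10 were above the WT range in KO 114, 3 in KO 122 and 9 in KO 207. Of 10 markers of stellate cells and fibroblasts, KO 114 and KO 122 were each above the WT range in 4 and KO 207 in 3, with medians of 0.10, 0.17 and 0.03 above the WT mean. The collagen genes Col1a1 and Col3a1 read 7.01 to 7.27 and 6.87 to 7.21 in WT, 7.92 and 7.83 in KO 114, 7.74 and 7.55 in KO 122, and 7.16 and 7.03 in KO 207. Of 5 cholangiocyte markers, KO 207 was above the WT range in 4 (median 0.25 above the WT mean), KO 114 in 1 and KO 122 in 0, and Epcam and Krt19 read 4.07 to 5.14 over all arrays. Of 9 markers of T, B and NK cells, KO 114 was above it in 7 and the other KO arrays in 3 each. Over all genes the share was 27.6% to 28.3% for a single KO array. Among neutrophil genes, S100a8 and S100a9 read 3.38 to 4.35. Cell cycle genes averaged 4.99 to 5.01 in WT, 5.39 and 5.18 in KO 114 and 122, and 4.89 in KO 207. Immediate early and heat shock genes averaged 7.98 in KO 114 against 6.80 to 7.38 in the other 5 arrays. The part of these differences in the results above was not tested.

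KO 207 also differed from all 5 other male livers in genes outside these groups. Zbtb16, a transcription factor gene, read 9.23 in KO 207 and 6.38 to 7.68 in the other 5. Nnt, a mitochondrial transhydrogenase gene that is disrupted in some C57Bl/6 substrains, read 8.69 against 7.60 to 7.91. The clock activator gene Arntl was highest in KO 207 (6.55, against 5.40 to 5.90), and the clock output genes Dbp (7.65, against 8.29 to 8.99), Per3 (5.83, against 6.43 to 7.03) and Usp2 (6.44, against 7.12 to 7.62) were lowest. Cyp7a1, the rate-limiting enzyme of bile acid synthesis, read 7.66 in KO 207 and 8.35 to 10.13 in the others. By at least 1 unit, KO 207 lay beyond the other 5 male arrays in 1 gene, Zbtb16, KO 114 in 10 genes, KO 122 in 13 and each WT array in 2 to 5. Whether strain background or the hour of sampling bears on the position of KO 207 was not tested.

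The male KO arrays were also read in the genes that changed in female livers. In females 185 genes passed the test (0.928%), 75 higher (0.376%) and 110 lower (0.552%) in KO, in the same fit. Of the 75 higher genes, KO 114 was above all male WT arrays in 66 (88.0%), KO 122 in 65 (86.7%) and KO 207 in 52 (69.3%), against 27.6% to 28.3% of all genes. Of the 110 lower genes, KO 114 and KO 122 were each below all male WT arrays in 86 (78.2%) and KO 207 in 55, against 25.1% to 26.2% of all genes. The median of KO 207 minus the male WT mean was 0.24 over the higher and -0.16 over the lower genes, and those of KO 114 were 0.44 and -0.50. The male arrays entered the choice of these genes through the shared spread. A gene in which KO 207 lay far from the other male KO arrays had a larger spread and was less likely to pass. Cd36, for example, rose by 2.70 in female KO and did not pass (limma adjusted p = 0.077). The choice thus favours genes in which the male KO arrays lie together, so these shares do not describe KO 207 over other genes.

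The change itself differed between the sexes in 11 genes (0.0552%), tested as the male minus the female KO effect. Sult3a1, a sulfotransferase, read 9.31 ± 0.29 (SD, n = 3) in female WT and 3.61 ± 0.56 in female KO, but 2.45 to 2.94 in male WT and 2.07 to 2.66 in male KO. The male effect exceeded the female one by 5.52 (adjusted p = 1.48e-06), and Sult3a2 (4.55), Slc22a26 (3.87), Fmo2 (2.05), Nipal1 (1.96), Gbp7 (1.79) and Grid1 (0.91) likewise were lower in KO in females, by 4.48 in Sult3a2 and 0.76 in Grid1 at the extremes, while their male differences lay between -0.45 and 0.15. Male WT averaged 2.62 in Sult3a1, 2.43 in Sult3a2 and 4.45 in Slc22a26, and the lowest deposited value was 1.22. For these genes a fall as large as in females could not be seen in males. Nipal1 was also low in male WT, at 4.64, and Fmo2 averaged 6.12. Gsn (-1.88) and Pcp4l1 (-2.77) were higher in KO in females, by 2.23 and 2.85, and differed by 0.36 and 0.07 in males. In Atp6v0d2, a proton pump subunit gene, the effects were opposite: 3.64, 4.25 and 4.47 in male WT and 5.12, 5.41 and 4.86 in male KO, against a mean of 6.97 in female WT and 5.80 in female KO (difference of effects 2.18, adjusted p = 0.00752). Sult1c2 read 5.60, 5.45 and 5.52 in male WT and 6.15, 6.28 and 6.09 in male KO, against 6.54 and 6.15 in females (1.04, adjusted p = 0.0241). In both Atp6v0d2 and Sult1c2 all 3 male KO arrays, KO 207 included, lay above male WT and toward the female level. The difference for Grid1, Pcp4l1 and Sult1c2 failed the test in 9, 5 and 9 of the 12 fits that leave out 1 animal, and the other 8 genes passed in all 12. Without KO 207, 58 genes (0.291%) differed between the sexes. For Cyp2b9 and Cyp4a14, whose male differences were large, the difference between the sexes did not pass (adjusted p = 0.798 and 0.256; 0.0232 for Cyp4a14 without KO 207 and 0.0448 without WT 126), and female KO minus WT was -2.17 and 1.02. For Cyp2b9 the female value rests on KO 131, which read 3.87, against 11.51 and 11.80 in the other female KO arrays and 11.17 to 11.34 in female WT. Without KO 131 it was 0.43.

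**Figure D5:**
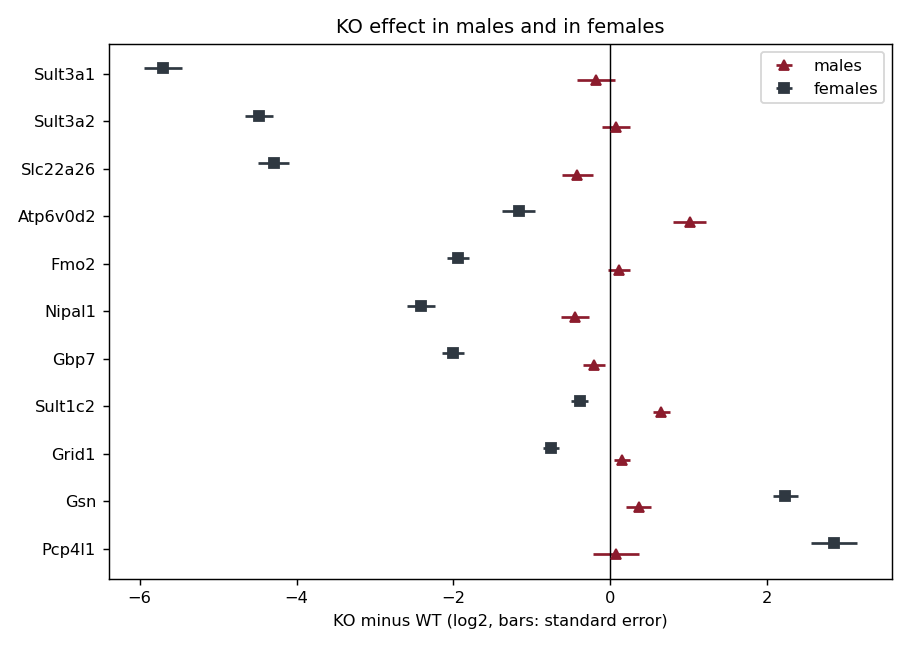
KO minus WT (log2, with the standard error of the limma fit as bars, n = 3 livers per group) in males and in females for the 11 genes whose KO effect differed between the sexes. Sult3a1, Sult3a2 and Slc22a26 lie far below 0 in females and near 0 in males, and Atp6v0d2 lies on opposite sides of 0. Male WT levels of Sult3a1, Sult3a2 and Slc22a26 were too low for a fall as large as in females to be seen.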

How the data were processed

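RNA from the liver of each of 12 mice was hybridised to 1 Affymetrix mouse gene array. The authors deposited log2 probe set summaries. The submitters' processing notes name Affymetrix Expression Console, and the sources used here give no algorithm. Of 35557 probe sets, 21789 have 1 gene symbol in the platform table; the probe set with the highest mean stood for each of 19938 genes, and 1621 with several symbols were left out. Differences were tested with limma 3.58.1 (R 4.3.3) in 1 fit of 4 group means over all 12 arrays, with 8 residual degrees of freedom, two-sided, and Benjamini-Hochberg adjustment over all genes, called at an adjusted p under 0.05. The fit was tested on simulated data. The number of arrays limits the precision: an exact permutation test of 3 against 3 could not go below p = 0.1.

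The arrays, gene lists and tests were chosen with earlier results of these data known. Genes were named if called, if among the largest differences or largest of a list, if KO 207 stood alone there, or as pathway members; others in the text were chosen after their values were seen. Alternatives covered the scaling, dim genes, the variance prior, array weights, the probe sets of a gene, the arrays in the fit and each animal left out. Gene and promoter tables came from RefSeq. P-values measure the spread between animals of a group.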

Additional observations from a re-analysis of the deposited data

Results flagged for a closer look

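In 11 genes the KO effect differed between male and female livers by the test of that difference (male minus female effect, log2). It was larger or less negative in males for Sult3a1 (5.52), Sult3a2 (4.55), Slc22a26 (3.87), Atp6v0d2 (2.18), Fmo2 (2.05), Nipal1 (1.96), Gbp7 (1.79), Sult1c2 (1.04) and Grid1 (0.91). Male WT levels of Sult3a1, Sult3a2 and Slc22a26 were too low for a fall as large as in females to be seen. The KO effect was smaller in males for Pcp4l1 (-2.77) and Gsn (-1.88).

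Among the 1621 probe sets with several gene symbols, which the comparisons did not use, 6 had male KO arrays all on 1 side of the WT arrays with a mean difference of at least 1, of which 1 was higher and 5 were lower in KO.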

How the results depend on the processing

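The count of 10 called genes became 5 with a robust prior, 220 with array weights (in which KO 207 had the lowest weight, 0.588), 0 in a fit of the 6 male arrays alone (with 1597 at an unadjusted p under 0.05) and 395 in that fit without KO 207. Leaving out each animal in turn gave 0 to 475 calls in males. For the difference between the sexes, 11 genes were called, 8 to 58 when an animal was left out, and 18 with array weights. The 2513 genes with male arrays apart became 4155 to 5540 without 1 male animal, where fewer arrays have to be apart. The other scalings, filters and probe set choices kept these total counts within 1.5 times. By direction, quantile normalization moved the 3 higher and 7 lower calls to 1 and 7, and the 1449 higher and 1064 lower genes with arrays apart to 1216 and 1269. Of 1137 values of 53 gene results under the alternatives, 0 changed sign, 102 lost the call and 64 gained it. Leaving out WT 126 gained calls for Cyp4a10 (adjusted p = 0.004) and Hamp2 (adjusted p = 0.0111). No paired analysis was possible because each animal has a number of its own and the groups share none.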

Other observations

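The 24 genes of bile acid synthesis and transport averaged 9.19 to 9.36 in WT. Their mean was 9.09 and 9.08 in KO 114 and 122, just below WT, and 9.37 in KO 207, just above it. Counts above the WT range were similar in the 3 KO arrays. KO 114 was above the WT range in 13 (54.2%) and KO 122 and KO 207 in 11 each (45.8%), against 27.6% to 28.3% of all genes. KO 114, 122 and 207 were below that range in 5, 9 and 4, and the medians were 0.18, 0.06 and 0.09 above the WT mean. All KO arrays lay above all WT arrays in 5 genes (20.8%), against 7.27% of all genes, and below in 0, against 5.34%. KO 207 lay 92.7% of the way to the other KO arrays for the transporter gene Slco1a4. Single genes, chosen after their values were seen, had KO 114 and KO 122 apart from KO 207. Cyp7b1, an oxysterol hydroxylase, read 11.33, 11.17 and 10.04 in WT 112, 116 and 126, 6.60 and 6.43 in KO 114 and 122, and 10.18 in KO 207. The uptake transporter gene Slc10a1 read 11.63 to 11.91 in WT, 11.11 and 10.96 in KO 114 and 122, and 11.87 in KO 207. The efflux pump gene Abcb1a read 4.96 to 5.52 in WT, 7.17 and 6.97 in KO 114 and 122, and 5.53 in KO 207. Of the 24 genes of this group, 0 were called by limma with all animals, with 9 at an unadjusted p under 0.05, against 1796 of all 19938 genes. Without KO 207, 3 were called higher and 3 lower, against 1.34% and 1.04% of all genes. Gstp1, a glutathione transferase, read 12.91 to 13.61 in WT, 11.30 and 11.34 in KO 114 and 122, and 13.40 in KO 207, and Gstm3 went the other way (10.14 to 10.33, then 11.21 and 11.05, and 10.18).

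Of the 20 genes linked with liver injury and fibrosis, KO 114 was above the WT range in 18 (90%), KO 122 in 9 (45%) and KO 207 in 0, against 27.6% to 28.3% of all genes. Limma called 0 with all animals, when 5 had an unadjusted p under 0.05, against 1796 of all 19938 genes. Without KO 207 limma called 5 higher, against 1.34% of all genes. Krt23, a keratin gene, read 4.39 to 4.73 in WT, 6.91 and 7.27 in KO 114 and 122, and 4.68 in KO 207, and Anxa2, an annexin gene, read 5.31 to 5.78, 7.85 and 7.84, and 5.72. Genes of the unfolded protein response lay the other way: the factor gene Xbp1 read 9.18 to 9.66 in WT, 8.84 and 8.72 in KO 114 and 122, and 9.27 in KO 207. KO arrays lay below all WT arrays in 4 of the 19 (21.1%), against 5.34% of all genes.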
